A study of Mus musculus with 24 samples.

Results

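Ribosome footprints on 9 genes of liver iron handling were followed in every library of the series. The genes were Fth1 and Ftl1 for iron storage, Slc40a1 and Hamp for export and its hormone, Trf, Tfr2 and Tfrc for transport and uptake, and Aco1 and Ireb2 for the regulation of these transcripts. They were taken by symbol from the 22429 genes of the deposited count table, and 9 of the 9 passed the filter on low counts. Livers came from male F1 C57BL6J/FVBN mice in 6 groups, with n = 4 per group: Ercc1 d/- mutants on dietary restriction at 16 weeks, fed (ad libitum) mutants at 16 weeks and at 7 weeks, Ercc1 +/+ wild types on restriction at 16 weeks, and fed wild types at 104 weeks and at 16 weeks. The mutants, which the submitters call progeroid, carry a truncated and a null germline allele of Ercc1, one of the partners that form a nuclease for repair of DNA damage. Restriction began in week 7 at 10% less food and reached 30% less from week 9, which meant 1.6 g of food per day for mutants and 2.1 g for wild types, against 2.3 g and 3.0 g when fed. All animals were kept on one synthetic diet, and on the day of collection no food was given beforehand.

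The liver holds much of the body's iron and also makes the hormone that sets how much iron enters the blood. Ferritin, a shell of heavy (Fth1) and light (Ftl1) chains, stores iron inside cells, and ferroportin (Slc40a1) is the exporter through which iron leaves them. Hepcidin, the peptide hormone encoded by Hamp, binds ferroportin and causes its loss from the cell surface. Transferrin (Trf) carries iron in plasma, the transferrin receptor encoded by Tfrc takes it into cells, and transferrin receptor 2 (Tfr2) takes part in sensing iron for hepcidin control. When iron is scarce, iron regulatory proteins (Aco1 and Ireb2) bind iron-responsive elements in messenger RNAs, which blocks translation of ferritin and ferroportin and stabilises the Tfrc transcript.

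Total counts ran from 13366558 to 27084259 per library. The targeted gene followed the labels: Ercc1 had 1 to 15 counts in the 12 mutant libraries, against 34 to 110 in the 12 wild-type libraries. Hepatocyte markers were abundant in every library, and albumin took 13.6 to 17.4% of counts in restricted mutants and 14.2 to 18.6% in restricted wild types, against 8.04 to 9.58% in fed mutants and 9.18 to 10.7% in fed wild types at 16 weeks. In old wild types albumin took 4.68 to 8.18%, below every fed wild type at 16 weeks. The summed level of 5 hepatocyte markers, albumin included, was 63082 to 121987 CPM, against 117925 to 126436 CPM at 16 weeks. Taken singly, 1 of the 5 markers was called higher and 1 lower with age, where 4.75% of all genes were higher and 4.59% lower. The median log2 change of the 5 was 0.10. The part of these markers in the results with age was not tested. The mRNA libraries of the same livers were not analysed here, so a footprint change is not divided into messenger level and translation. Values below are CPM (counts scaled to the effective size of each library), which rank 1 gene across libraries and not 1 gene against another. Whether replicates were prepared separately beyond their numbering is not stated, and p-values measure the spread between these libraries.

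Of the 9 genes, ferritin and ferroportin had the largest changes under restriction. In restricted against fed wild types, 4 of the 9 genes passed an adjusted p of 0.05 (edgeR's quasi-likelihood test, Benjamini-Hochberg over all 12211 genes tested), against 12.1% of all genes: Fth1, Ftl1 and Slc40a1 rose (5.44% of all genes did) and Aco1 fell (6.71%). In restricted against fed mutants, 2 of the 9 passed, against 11.6% of all genes (5.59% higher and 6.04% lower), and both were ferritin chains that rose. In old against 16-week wild types, 2 of 9 passed, against 9.34%: Ftl1 rose (4.75% of all genes did) and Aco1 fell (4.59%). In restricted mutants against restricted wild types, 1 of 9 passed, against 18.2%: Slc40a1 was lower in mutants (8.85% of all genes were, and 9.38% were higher). None of the 9 passed in fed mutants against fed wild types at 16 weeks (10.7% of all genes did, 5.69% higher and 5.04% lower), in mutants at 16 against 7 weeks (0.434%, with 0.246% higher and 0.188% lower), or in the difference between mutants and wild types in the response to restriction (0.803%). At an unadjusted p under 0.05, Tfrc and Slc40a1 passed in the fed mutants against fed wild types, Hamp and Ireb2 in the mutants by age, and no member in the difference of responses. DESeq2 called Tfrc in fed mutants against fed wild types and none of the 9 in the other 2 of these comparisons.

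Separation of the libraries gives a second reading of the same values. In restricted against fed mutants, 4 of 9 genes had no overlap between the groups, against 17.5% of all genes: Fth1, Ftl1 and Hamp were higher in every restricted library (8.43% of all genes were) and Ireb2 was lower (9.03%). In restricted against fed wild types, Fth1, Ftl1 and Slc40a1 were separated, 3 of 9 against 14.6% (6.35% higher and 8.25% lower). Fed mutants were separated from fed wild types in 4 of 9 genes, against 22.2%: Tfrc was higher (10.9% of all genes were), and Trf, Hamp and Aco1 were lower (11.4%). Restricted mutants were separated from restricted wild types in Slc40a1 and Hamp, 2 of 9 against 15.2%, both lower (6.87% of all genes were lower and 8.31% higher). With age, wild types were separated in 3 of 9 genes, against 17.6%, with Ftl1 higher (8.64%) and Tfrc and Aco1 lower (8.98%). Mutants at 16 weeks were separated from those at 7 weeks in 3 of 9 genes, against 10.7%, with Hamp higher (4.98%) and Aco1 and Ireb2 lower (5.69%).

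**Figure D1:**
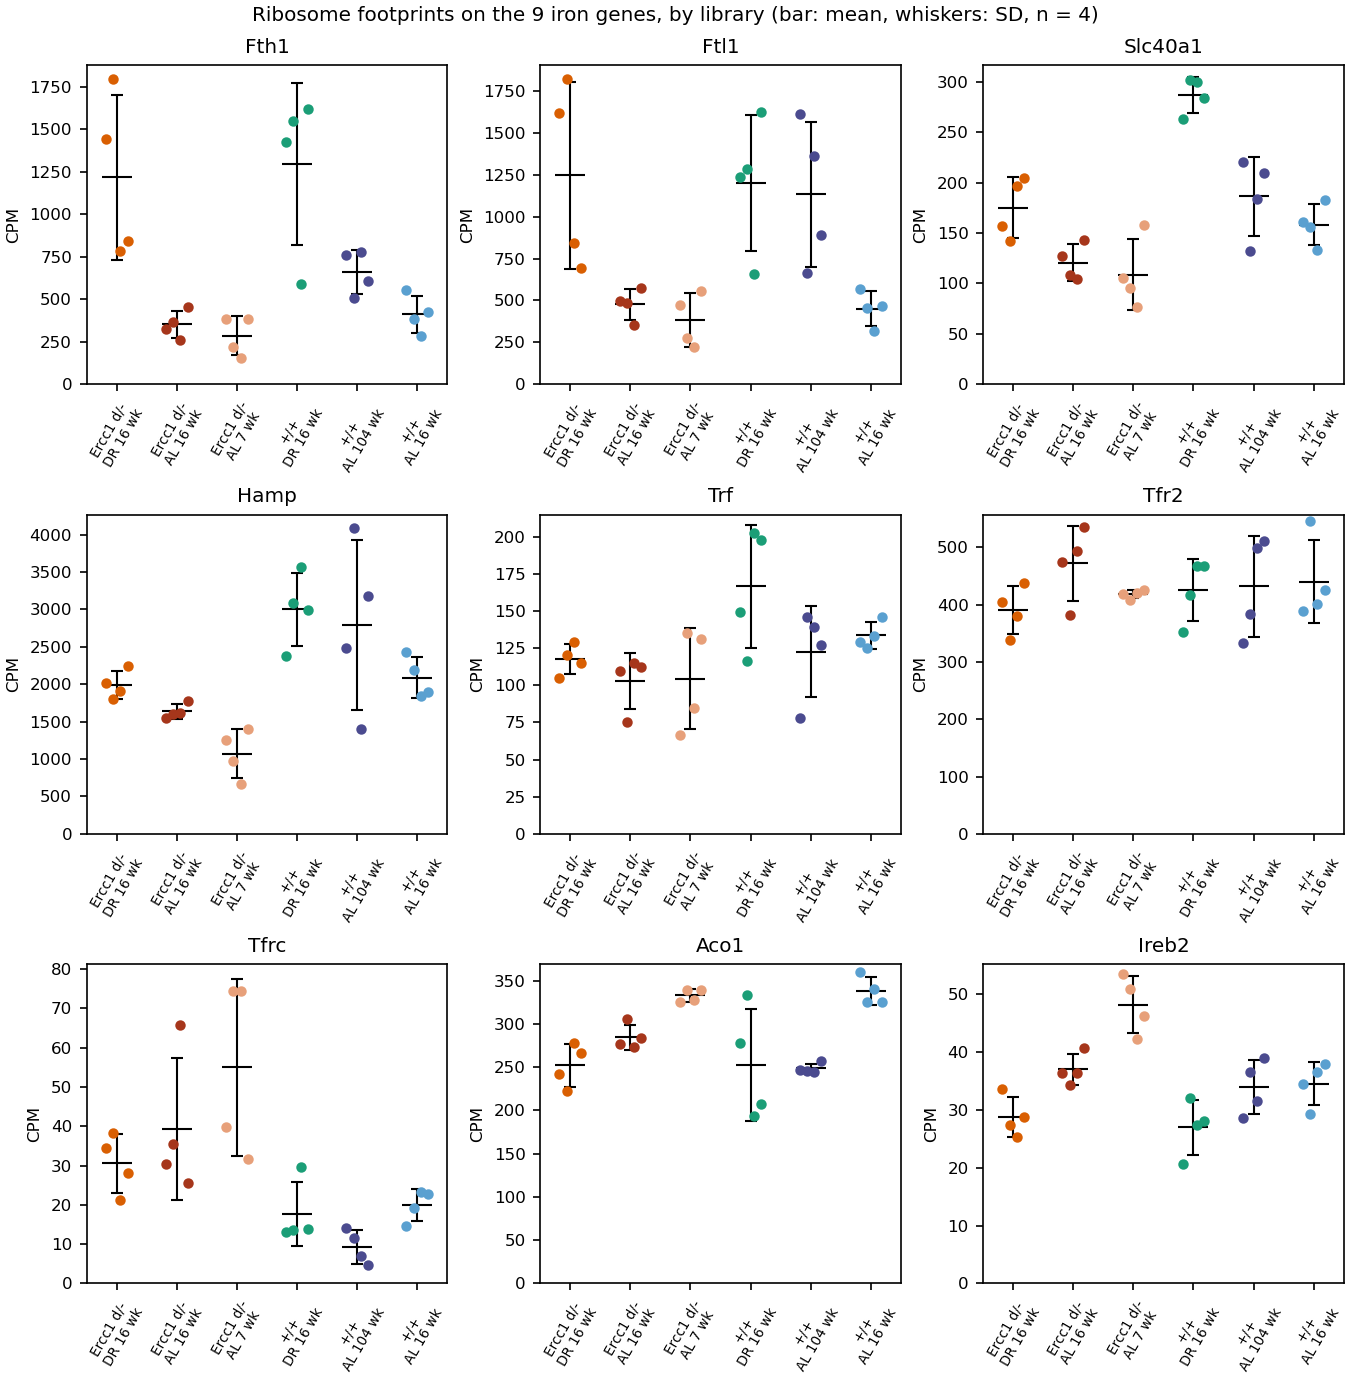
Ribosome footprints in CPM (vertical axes, from 0) on each of the 9 genes, with 1 point per library, a bar at the group mean and whiskers of 1 SD (n = 4). Fth1 and Ftl1 are high in both restricted groups, Ftl1 is also high in old wild types, Slc40a1 is highest in restricted wild types, and the Tfrc values of fed mutants at 16 weeks (25.6 to 65.8 CPM) lie above those of fed wild types (14.6 to 23.3 CPM).

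The ferritin heavy chain rose in restricted animals of both genotypes. Fth1 (ENSMUSG00000024661, chromosome 19, 9980600 to 9985111, GRCm38.p6) had 1444.8, 1795.0, 784.4 and 845.1 CPM in restricted mutants, against 326.5, 368.2, 260.4 and 454.2 CPM in fed mutants. The lowest restricted mutant lay above the highest fed one. The change was 3.45-fold (log2 1.79 ± 0.34, SE; adjusted p = 0.00125). Restricted wild types had 1428.4, 1551.0, 591.5 and 1620.7 CPM, against 553.4, 382.5, 287.3 and 423.7 CPM in fed wild types. Again no library overlapped, though the third restricted wild type stood close to the fed range, and the change was 3.15-fold (log2 1.66 ± 0.34; adjusted p = 0.00271). The response of mutants differed from that of wild types by 0.13 ± 0.47 on the log2 scale (adjusted p = 0.941), an interval too wide to call the responses alike. In whole liver, fewer cells of a type and less RNA per cell cannot be told apart, and the same holds for gains.

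In old wild types the mean heavy chain level lay between those of the fed and the restricted 16-week groups. They had 761.8, 506.7, 776.5 and 608.8 CPM of Fth1, which overlapped the 16-week range and differed from it by log2 0.69 ± 0.33 (adjusted p = 0.216; 0.0371 when only these 2 groups were fitted). Mutants at 7 weeks had 386.6, 220.9, 155.5 and 383.8 CPM, the lowest mean and the lowest single value of the series. The 16-week mutants overlapped them, with a log2 difference of 0.30 ± 0.33 (adjusted p = 0.859). In order of group mean, Fth1 was highest in restricted wild types (1298 ± 478 CPM, SD, n = 4) and restricted mutants (1217 ± 487), followed by old wild types (663 ± 129), fed wild types (412 ± 110), fed mutants at 16 weeks (352 ± 81.1) and mutants at 7 weeks (287 ± 117). Each group overlapped its neighbour in this order except restricted mutants and old wild types.

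The light chain went with the heavy chain under restriction and rose with age as well. Ftl1 (ENSMUSG00000050708, chromosome 7, 45457944 to 45459886) had 1618.9, 1821.8, 843.9 and 695.6 CPM in restricted mutants, against 493.8, 484.9, 354.7 and 572.9 CPM in fed mutants (log2 1.39 ± 0.36; adjusted p = 0.0142). Restricted wild types had 1236.2, 1284.8, 655.1 and 1625.3 CPM, against 566.6, 457.4, 315.5 and 464.1 CPM in fed wild types (log2 1.41 ± 0.36; adjusted p = 0.0125). In neither genotype did restricted and fed libraries overlap. Old wild types had 1610.7, 663.1, 1363.4 and 892.5 CPM, each above every fed wild type at 16 weeks (log2 1.33 ± 0.36; adjusted p = 0.0214). The call in old wild types was lost without old replicate 1 (adjusted p = 0.0779), old replicate 3 (0.0577), 16-week replicate 3 (0.0746) or 16-week replicate 4 (0.0551), and that in mutants without restricted replicate 1 (0.0522) or 2 (0.0567).

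Ftl1 carries an uncertainty from a close relative, and relatives of Fth1 that could share its reads were not looked up. A processed pseudogene, Ftl1-ps1 on chromosome 13 (74406397 to 74407325), held 95.2 to 97.5% of the count of Ftl1 in every library, and the log2 CPM of the pair correlated at r = 0.9999 over the 24 libraries. A pair so close cannot be separated by these counts, and how reads that fit both were counted is not known. The Ftl1 row may hold all of these reads or only a part. With Ftl1-ps1 left out, Fth1 and Ftl1 footprints together took 0.165 to 0.379% of all counts in restricted mutants, against 0.0623 to 0.105% in fed mutants. In restricted wild types they took 0.118 to 0.307%, against 0.0598 to 0.113% in fed wild types. The chains moved together from library to library: r of their log2 CPM was 0.94 over 24 libraries and stayed at 0.94 after the group means were removed, so a mouse high in one chain for its group was high in the other.

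The balance of heavy to light chain footprints was compared within libraries, where depth and scaling cancel. Its level depends on how reads shared by Ftl1 and Ftl1-ps1 were counted, so only differences between libraries are read. The ratio of Fth1 to Ftl1 counts within a library was 1.01 ± 0.145 in restricted mutants (SD, n = 4) and 0.737 ± 0.0558 in fed mutants, with no overlap. It was 0.737 ± 0.0558 in fed mutants and 0.909 ± 0.0574 in fed wild types at 16 weeks, and 0.622 ± 0.128 in old and 0.909 ± 0.0574 in 16-week wild types, again with no overlap in either pair. Each of these 3 differences reached p = 0.0286 in an exact 2-sided permutation test, the smallest that 4 against 4 libraries allow, and 0.0571 after adjustment over the 6 comparisons. None therefore passed. Restricted wild types had a ratio of 1.07 ± 0.141, which overlapped that of fed wild types (adjusted p = 0.171 by the exact permutation test; 0.0429 without restricted replicate 3). On the scale of single mice, the lowest ratio was 0.473 in an old wild type and the highest 1.21 in restricted animals of either genotype.

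**Figure D2:**
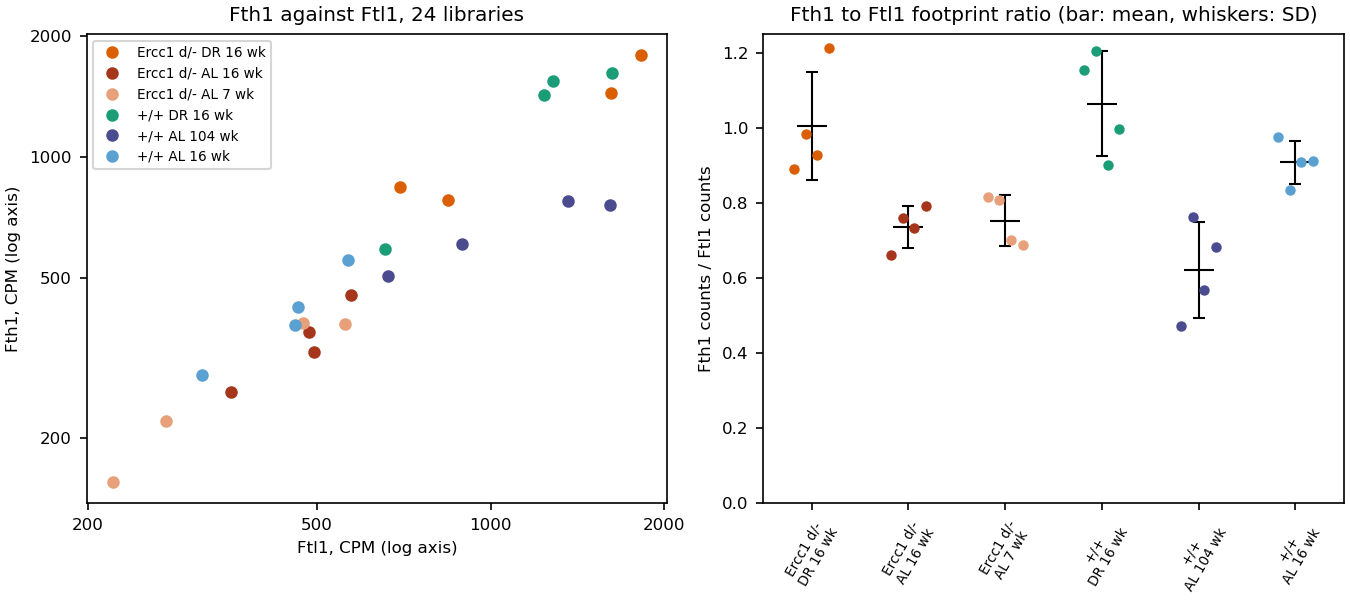
Left, Fth1 against Ftl1 in CPM on log axes, 1 point per library (24 libraries). Right, the ratio of Fth1 to Ftl1 counts in each library with the group mean and SD (n = 4): old wild types average 0.622 and restricted groups 1.01 and 1.07.

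Macrophages also hold ferritin, and their markers are given beside it. The summed level of 15 macrophage markers, none of them at 0 in all libraries, was 596 to 752 CPM in restricted mutants and 569 to 756 CPM in fed mutants. None of the 15 rose while 1 fell, where 5.59% of all genes rose and 6.04% fell. In restricted wild types the sum was 359 to 551 CPM, against 290 to 346 CPM in fed wild types. Of the 15 markers 3 rose there, where 5.44% of all genes rose. In old wild types the sum was 459 to 598 CPM. Against 16 weeks 11 of the 15 markers rose, where 4.75% of all genes rose. Their part in the ferritin values was not tested.

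Ferroportin rose with restriction and was lower in mutants. Slc40a1 (ENSMUSG00000025993, chromosome 1, 45908070 to 45926532) had 263.1, 301.6, 299.4 and 283.8 CPM in restricted wild types, against 160.9, 156.4, 133.0 and 182.8 CPM in fed wild types. The groups stood far apart, with a 1.81-fold difference (log2 0.86 ± 0.18; adjusted p = 0.00265). Restricted mutants had 157.0, 142.0, 196.2 and 205.0 CPM, against 127.5, 108.1, 104.2 and 142.9 CPM in fed mutants. These overlapped by a single pair of libraries, and the log2 difference of 0.54 ± 0.18 missed the threshold (adjusted p = 0.0550). It passed by DESeq2 (0.0414), with library totals as the only scaling (0.0444), when only the compared groups were fitted (0.0378) or without restricted replicate 2 (0.0377).

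Under restriction the mutants had less ferroportin footprint than the wild types, with every mutant library below every wild-type library (log2 -0.71 ± 0.18; adjusted p = 0.00735). The fed pair pointed the same way with overlapping values (log2 -0.39 ± 0.18; adjusted p = 0.184), and the responses to restriction differed by log2 -0.32 ± 0.26 (adjusted p = 0.657). Ferroportin is abundant in macrophages as well as hepatocytes. The summed macrophage markers were 596 to 752 CPM in restricted mutants and 359 to 551 CPM in restricted wild types. Their part in the Slc40a1 values was not tested. Old wild types had 220.3, 132.2, 184.2 and 209.4 CPM, overlapping the 16-week range (adjusted p = 0.472). Mutants at 7 weeks had 76.8 to 157.8 CPM, with the lowest mean of the 6 groups (109 ± 34.8 CPM). In the order of means, only restricted wild types (287 ± 17.8 CPM) were clear of their neighbour, the old wild types (187 ± 39.3 CPM).

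Hepcidin is read here from 2 neighbouring genes. Hamp (ENSMUSG00000050440, chromosome 7, 30942368 to 30944029) and its duplicate Hamp2 (ENSMUSG00000056978, 30922372 to 30924181) lie near each other on the minus strand, and in the mouse it is Hamp that has been tied to iron. The 150 bases before each start, from RefSeq on GRCm38.p6, are shown because they hold the motifs through which the iron (BMP and SMAD) and inflammatory (STAT3) signals are known to reach the Hamp promoter. Capitals mark GGCGCC, the core of the BMP-responsive element, and TTCNNNGAA, a STAT motif, each searched on both strands.
Hamp, chr7:30944030-30944179, minus strand: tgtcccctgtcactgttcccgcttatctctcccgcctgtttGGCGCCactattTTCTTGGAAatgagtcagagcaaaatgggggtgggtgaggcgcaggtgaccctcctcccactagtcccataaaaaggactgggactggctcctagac
Hamp2, chr7:30924182-30924331, minus strand: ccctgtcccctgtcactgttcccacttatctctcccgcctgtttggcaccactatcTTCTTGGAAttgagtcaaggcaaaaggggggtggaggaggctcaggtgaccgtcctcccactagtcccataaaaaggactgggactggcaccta

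The windows were 88.2% identical over 153 aligned columns, with 12 substitutions. Hamp holds GGCGCC at -109 to -104 and the STAT motif at -97 to -89 from its start. Hamp2 holds the STAT motif at -94 to -86 and no GGCGCC, where it has the substitution G45A (Hamp base first, counted from 1 at the 5′ end of the Hamp window). Of 32851 RefSeq windows of this length, 7.01% hold GGCGCC, 4.09% hold TTCNNNGAA and 0.125% hold both. The motifs do not overlap each other, and a match is a description of letters only.

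Hamp separated mutants from wild types in both diets, with no single comparison past the threshold. Restricted mutants had 2009.5, 1796.1, 1903.6 and 2247.6 CPM, against 2370.0, 3081.8, 3566.1 and 2986.3 CPM in restricted wild types (log2 -0.59 ± 0.23; adjusted p = 0.0704; 0.0456 without restricted wild-type replicate 1). Fed mutants had 1549.2, 1598.3, 1614.1 and 1779.2 CPM, against 2427.3, 2186.2, 1841.2 and 1891.3 CPM in fed wild types (log2 -0.35 ± 0.23; adjusted p = 0.361). In each diet every mutant library lay below every wild-type library. Restriction gave log2 0.28 ± 0.23 in mutants (adjusted p = 0.475) and 0.52 ± 0.23 in wild types (adjusted p = 0.136).

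The lowest mean of Hamp was in the youngest animals and the widest spread in the oldest. Mutants at 7 weeks had 1248.8, 978.3, 664.5 and 1398.5 CPM, all below the 16-week mutants, with a log2 difference of 0.61 ± 0.23 for 16 over 7 weeks that did not pass (adjusted p = 0.344). Old wild types had 2477.6, 4092.8, 1402.4 and 3177.6 CPM, which include both the highest and the lowest Hamp value of any wild type (log2 0.42 ± 0.23 against 16 weeks; adjusted p = 0.274). Without old replicate 3 that change was 0.64 (adjusted p = 0.0447), the single 1 of 8 such fits that passed. Old replicate 3 had the lowest hepatocyte marker sum of the series (63082 CPM). Old replicate 4 had the next lowest (72973 CPM), with 3177.6 CPM of Hamp. The part of these markers in the Hamp values was not tested. In order of group mean, Hamp was highest in restricted wild types (3001 ± 491 CPM) and old wild types (2788 ± 1136), then in fed wild types (2086 ± 273), restricted mutants (1989 ± 193), fed mutants (1635 ± 99.9) and mutants at 7 weeks (1073 ± 323). The 3 mutant groups did not overlap each other, while each other neighbour pair in this order did.

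Hamp2 followed Hamp across libraries (r = 0.94 over 24 libraries) and passed the test between the restricted groups. It had 717.5, 553.6, 572.1 and 662.3 CPM in restricted mutants, against 977.0, 1583.0, 1458.3 and 1047.5 CPM in restricted wild types (log2 -1.02 ± 0.29; adjusted p = 0.0166; 0.0501 without wild-type replicate 2). As a percent of the Hamp count it was 31.5 ± 2.85% in restricted mutants and 40.2 ± 1.82% in fed mutants (SD, n = 4), with no overlap. It was 42.1 ± 6.77% in restricted wild types and 38.9 ± 6.88% in fed wild types, which overlapped. The counts that the authors' processing could have shared between these 2 related genes are not known, and the 2 rows are uncertain one by one. The transcripts of the pair were not compared.

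**Figure D3:**
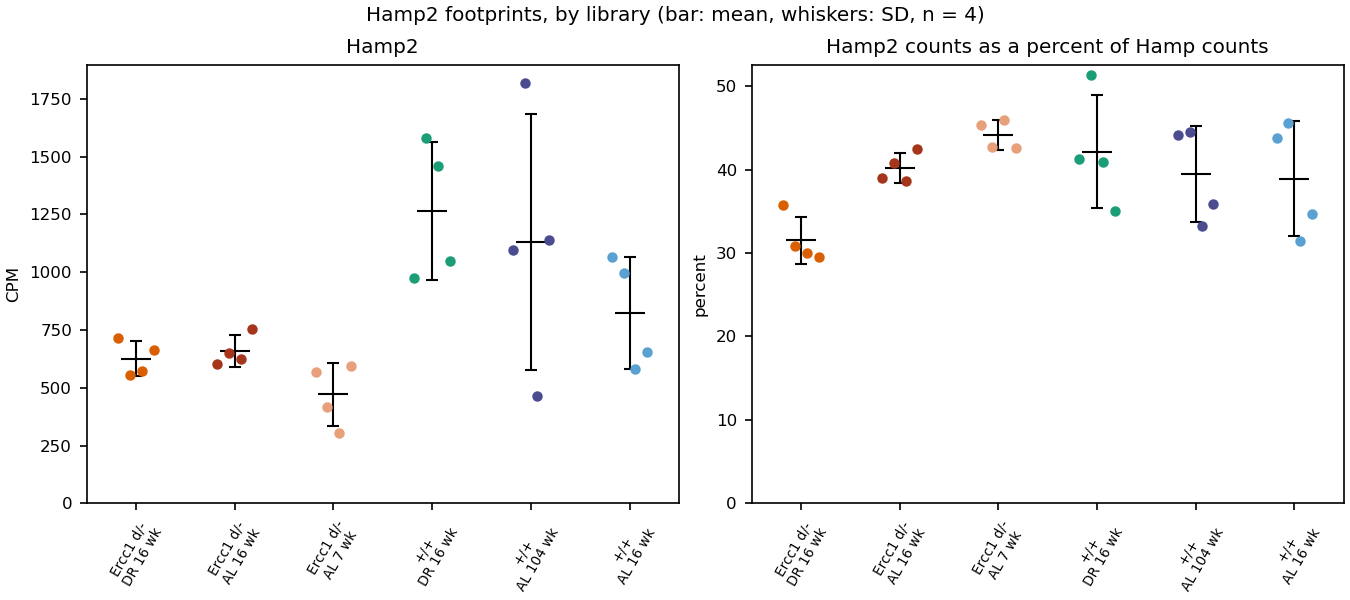
Hamp2 footprints in CPM (left) and Hamp2 counts as a percent of Hamp counts (right), 1 point per library with mean and SD (n = 4). Restricted mutants have 554 to 718 CPM and the lowest mean percent, 31.5%.

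The uptake receptor had its highest group means in mutants and its lowest in old wild types, and passed the test in no single comparison. Tfrc (ENSMUSG00000022797, chromosome 16, 32608896 to 32632794) had 30.3, 35.6, 65.8 and 25.6 CPM in fed mutants, against 14.6, 19.2, 23.3 and 22.7 CPM in fed wild types at 16 weeks. Every mutant lay above every wild type, by 1.97-fold (log2 0.98 ± 0.37), and the test did not pass (adjusted p = 0.0978; 0.0431 by DESeq2; 0.0470 with library totals as the only scaling). Restricted mutants had 34.4, 38.3, 21.2 and 28.2 CPM, against 13.1, 13.7, 29.7 and 13.9 CPM in restricted wild types (log2 0.79 ± 0.37; adjusted p = 0.145; 0.0413 without wild-type replicate 3). Mutants at 7 weeks had 39.8, 74.4, 74.3 and 31.6 CPM, with the highest mean, and old wild types 14.1, 11.6, 7.0 and 4.6 CPM, with the lowest. The old wild types lay below every 16-week wild type, at log2 -1.10 ± 0.38 (adjusted p = 0.0771; 0.0232 by DESeq2). Each group overlapped its neighbour in the order of means, which ran from 55.0 ± 22.6 CPM in mutants at 7 weeks down to 9.32 ± 4.33 CPM in old wild types.

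Within groups, the relation of Tfrc to Fth1 was mixed. The library with the highest Tfrc was also the one with the lowest Fth1 in 3 of the 6 groups: fed mutants at 16 weeks (65.8 CPM of Tfrc), restricted wild types (29.7 CPM) and fed wild types at 16 weeks (23.3 CPM). In restricted mutants the library with the highest Tfrc (38.3 CPM) had the highest Fth1 (1795.0 CPM). The old wild type with the highest Tfrc (14.1 CPM) had 761.8 CPM of Fth1, near the highest of its group (776.5 CPM). Among mutants at 7 weeks, the library with the highest Tfrc (74.4 CPM) had 220.9 CPM of Fth1, above the lowest (155.5 CPM). After removal of group means, the log2 CPM of the pair correlated at r = -0.49 over 24 libraries, and Tfrc and Slc40a1 at r = -0.52, given as descriptions of these libraries. Red cell precursors are rich in the Tfrc transcript. The summed level of 8 erythroid markers, globins included, was 602 to 1756 CPM in fed mutants and 1179 to 1931 CPM in fed wild types, and 646 to 1113 CPM in restricted mutants and 640 to 1201 CPM in restricted wild types. The 4 tested erythroid markers, all of them globins, had log2 differences below 0 in both genotype comparisons. None of them passed, where 10.7% (fed) and 18.2% (restricted) of all genes did. Their part in the Tfrc values was not tested.

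Transferrin passed the test in no single comparison. Trf (ENSMUSG00000032554, chromosome 9, 103208876 to 103230286) had 109.5, 75.2, 114.8 and 112.1 CPM in fed mutants, all below the 129.5, 125.4, 133.3 and 146.3 CPM of fed wild types (log2 -0.38 ± 0.21; adjusted p = 0.283). Under restriction it had 105.0, 120.7, 129.2 and 115.3 CPM in mutants, against 149.4, 116.4, 202.6 and 198.1 CPM in wild types, with overlapping values (log2 -0.50 ± 0.21; adjusted p = 0.0980; 0.0370 without wild-type replicate 2). Mutants at 7 weeks spanned 66.8 to 135.1 CPM and old wild types 78.2 to 145.9 CPM, each overlapping its 16-week counterpart. Restriction gave log2 0.19 ± 0.21 in mutants (adjusted p = 0.627) and 0.32 ± 0.21 in wild types (adjusted p = 0.355).

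Tfr2 (ENSMUSG00000029716, chromosome 5, 137569822 to 137588081) was the steadiest of the 9 genes. Its highest library, at 546.1 CPM, was 1.64-fold its lowest, at 332.4 CPM. Group means ran from 390 ± 42.1 CPM in restricted mutants to 472 ± 64.9 CPM in fed mutants at 16 weeks, and the 6 groups overlapped. The largest log2 difference of Tfr2 in any pair of groups compared was -0.28 ± 0.15, in restricted against fed mutants (adjusted p = 0.241).

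Of the iron regulatory proteins, Aco1 passed the test in wild types under restriction and with age. Aco1 (ENSMUSG00000028405, chromosome 4, 40143265 to 40199009) encodes a protein that is a cytosolic aconitase when it holds an iron-sulphur cluster and iron regulatory protein 1 when it does not. It had 278.0, 333.1, 194.1 and 207.3 CPM in restricted wild types, against 360.5, 325.4, 340.6 and 325.9 CPM in fed wild types (log2 -0.42 ± 0.13; adjusted p = 0.0330). Old wild types had 247.1, 245.9, 244.7 and 256.8 CPM, a tight group that lay wholly below the 16-week wild types (log2 -0.44 ± 0.13; adjusted p = 0.0283). These Aco1 calls were near the threshold: they were lost with library totals as the only scaling (adjusted p = 0.163 under restriction, 0.109 with age). Under restriction the call was also lost with no filter on low counts (0.0561), with only the compared groups fitted (0.220) and without any 1 fed wild type or restricted replicate 3 or 4 (0.0528 to 0.197), and with age without any 1 library other than old replicate 4 (0.0507 to 0.0794).

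In mutants no Aco1 difference passed. The gene had 241.8, 222.1, 277.9 and 266.4 CPM in restricted mutants and 276.6, 305.8, 274.0 and 283.5 CPM in fed mutants (log2 -0.18 ± 0.13; adjusted p = 0.422). Fed mutants lay wholly below fed wild types (log2 -0.25 ± 0.13; adjusted p = 0.244) and wholly below mutants at 7 weeks, which had 326.0, 339.7, 327.4 and 339.5 CPM (log2 -0.23 ± 0.13; adjusted p = 0.603). Ireb2 (ENSMUSG00000032293, chromosome 9, 54862658 to 54912534) encodes iron regulatory protein 2, which is degraded when iron is plentiful. It had 33.5, 27.5, 25.3 and 28.7 CPM in restricted mutants, all below the 36.4, 34.4, 36.4 and 40.8 CPM of fed mutants (log2 -0.36 ± 0.14; adjusted p = 0.0876). Restricted wild types had 20.6, 32.0, 27.3 and 28.1 CPM, against 34.4, 29.3, 36.6 and 37.9 CPM in fed wild types (log2 -0.36 ± 0.14; adjusted p = 0.0907; 0.0366 without restricted replicate 2). Mutants at 7 weeks had the highest values of the series, 53.5, 50.9, 42.3 and 46.2 CPM, each above every 16-week mutant (log2 -0.38 ± 0.14 for 16 over 7 weeks; adjusted p = 0.313).

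When a factor was averaged over the other in the same model, a contrast chosen after the data were seen, more of the 9 genes passed. Restriction averaged over both genotypes called 5 of 9, against 22.2% of all genes: Fth1 (log2 1.72 ± 0.24; adjusted p = 2.27e-05), Slc40a1 (0.70 ± 0.13; 0.000296), Ftl1 (1.40 ± 0.25; 0.000404), Ireb2 (-0.36 ± 0.10; 0.00874) and Aco1 (-0.30 ± 0.09; 0.0196). Genotype averaged over both diets called 4 of 9, against 26.5% of all genes: Slc40a1 (-0.55 ± 0.13; 0.00226), Tfrc (0.89 ± 0.26; 0.0161), Trf (-0.44 ± 0.15; 0.0302) and Hamp (-0.47 ± 0.16; 0.0307). With each of the 16 libraries left out in turn, Fth1, Ftl1, Slc40a1 and Ireb2 kept their restriction calls and Slc40a1 and Tfrc their genotype calls in all 16 fits. Aco1 kept its call in 12 of 16 fits (highest adjusted p = 0.0705), Trf in 11 (0.0625) and Hamp in 10 (0.0627).

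**Figure D4:**
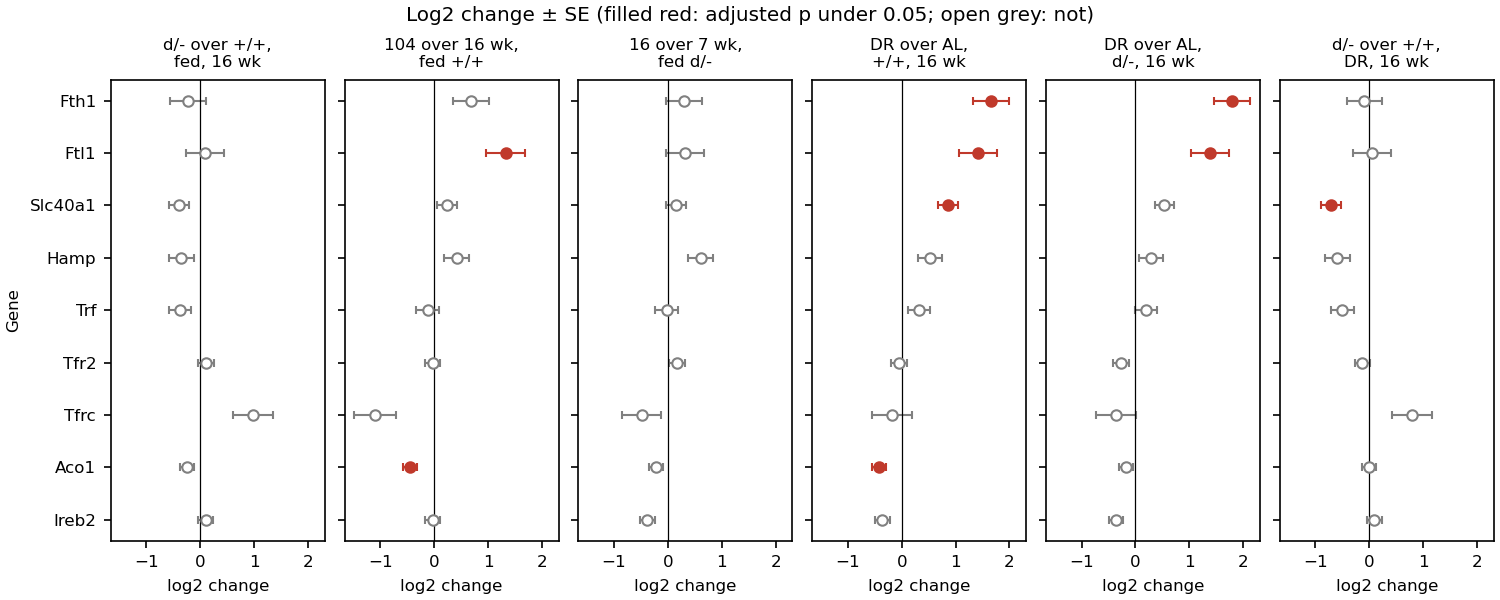
Log2 change with its SE (horizontal axis) of the 9 genes in the 6 comparisons of groups; filled red points have an adjusted p under 0.05. Fth1 and Ftl1 lie right of 0 in both restriction panels, and Slc40a1 is filled red to the right in restricted wild types and to the left in restricted mutants against restricted wild types.

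Single genes that handle iron around ferritin passed the test under restriction, and their number is given beside the share of all genes. Of 24 further genes of iron transport and handling, 19 were tested. In restricted against fed mutants 3 rose and none fell, where 11.6% of all genes passed (5.59% higher and 6.04% lower). The median log2 change was 0.11, against 0.00 over all genes tested. Ncoa4, the receptor that delivers ferritin to lysosomes for breakdown, had 402.7, 335.1, 312.7 and 301.3 CPM in restricted mutants, against 230.9, 215.8, 241.3 and 238.5 CPM in fed mutants (log2 0.54 ± 0.12; adjusted p = 0.00309). Pcbp2, an iron chaperone, had 184.0, 164.2, 120.6 and 130.8 CPM, against 77.6, 82.3, 91.6 and 86.8 CPM (log2 0.83 ± 0.16; adjusted p = 0.000979), and the mitochondrial iron importer Slc25a28 changed by log2 0.80 ± 0.19 (adjusted p = 0.00549). Restricted wild types had 3 of the 19 that rose and 1 that fell, where 5.44% of all genes rose and 6.71% fell (median 0.08, against 0.02 over all genes). The gene that fell was Scara5 (log2 -3.69; adjusted p = 0.00740 by edgeR). Pcbp1, which loads iron into ferritin, was among those that rose, at log2 0.60 ± 0.13 (adjusted p = 0.00286; 0.0601 when only these groups were fitted).

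In the difference between genotypes in the response to restriction, 0.803% of all genes passed. Pcbp1 was the single gene of the lists used here (19, 28, 22, 21, 26 and 5 tested genes) that did. It had 125.6, 144.6, 137.7 and 117.6 CPM in restricted mutants and 184.9, 163.1, 180.9 and 143.7 CPM in fed mutants, against 222.7, 191.0, 211.9 and 306.0 CPM in restricted wild types and 162.5, 170.1, 136.1 and 144.6 CPM in fed wild types. The difference in response, mutants minus wild types, was log2 -0.96 ± 0.18 (adjusted p = 0.00748). Between the restricted groups Pcbp1 was lower in mutants (log2 -0.83 ± 0.13; adjusted p = 7.53e-05). Of the 19 tested genes 3 were higher and 4 lower in that comparison, where 9.38% of all genes were higher and 8.85% lower (median 0.24, against -0.01 over all genes). The lower ones included the metalloreductase Steap2 (log2 -2.05 ± 0.37; adjusted p = 0.000298). The higher ones included Scara5 (log2 4.54; adjusted p = 0.000789 by edgeR). In fed mutants against fed wild types 2 were higher and 1 lower, where 5.69% of all genes were higher and 5.04% lower (median 0.12, against 0.01 over all genes). In old against 16-week wild types 2 were higher and none lower, where 4.75% of all genes were higher and 4.59% lower (median 0.14, against 0.01). None passed in mutants by age, where 0.434% of all genes did.

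Among heme genes, Hmox1 and Abcg2 passed the test under restriction in both genotypes. Of 21 tested genes of heme synthesis and breakdown, 4 rose and 4 fell in restricted against fed mutants, where 5.59% of all genes rose and 6.04% fell (median log2 -0.21, against 0.00 over all genes). Wild types had 2 that rose and 2 that fell under restriction, where 5.44% of all genes rose and 6.71% fell (median -0.07, against 0.02). Hmox1, the heme oxygenase that frees iron from heme, had 38.5, 46.6, 42.7 and 47.4 CPM in restricted mutants, against 26.7, 15.7, 16.1 and 16.3 CPM in fed mutants (log2 1.23 ± 0.24; adjusted p = 0.00128). It had 30.5, 17.4, 29.6 and 64.6 CPM in restricted wild types, against 12.5, 11.2, 12.9 and 13.1 CPM in fed wild types (log2 1.52 ± 0.25; adjusted p = 0.000200). In old wild types Hmox1 had 28.4, 27.2, 31.5 and 24.7 CPM, again above every 16-week wild type (log2 1.17 ± 0.25; adjusted p = 0.00337). Hmox1 thus rose in each comparison in which Ftl1 rose. Macrophages are rich in heme oxygenase, and their summed markers in these groups are those given beside ferritin.

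Abcg2, an exporter of porphyrins among other compounds, fell in the same 3 comparisons. It had 50.9, 37.6, 55.5 and 54.2 CPM in restricted mutants, against 109.7, 109.7, 97.2 and 124.7 CPM in fed mutants (log2 -1.15 ± 0.17; adjusted p = 5.14e-05). It had 42.8, 44.4, 30.7 and 19.6 CPM in restricted wild types, against 122.6, 128.0, 133.1 and 123.4 CPM in fed wild types (log2 -1.88 ± 0.18; adjusted p = 7.83e-08). In old wild types Abcg2 had 83.2, 78.8, 61.7 and 78.7 CPM (log2 -0.75 ± 0.17; adjusted p = 0.00695). With age in wild types 1 of the 21 heme genes rose and 4 fell, where 4.75% of all genes rose and 4.59% fell. Among those that fell was Cpox, a late enzyme of heme synthesis (log2 -0.86 ± 0.19; adjusted p = 0.00464). Cpox was also lower in restricted mutants than in restricted wild types (log2 -0.94 ± 0.19; adjusted p = 0.000983). There 2 of the 21 were higher and 2 lower, where 9.38% of all genes were higher and 8.85% lower. None of the 21 passed in fed mutants against fed wild types (10.7% of all genes did) or in mutants by age (0.434%).

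Alas2, the red cell form of the enzyme that starts heme synthesis, had the largest fall of the heme genes in restricted wild types. It had 6.2, 8.0, 4.3 and 6.4 CPM there, against 25.5, 21.0, 111.8 and 126.9 CPM in fed wild types (log2 -3.51 ± 0.72; adjusted p = 0.00313). Restricted mutants had 8.3, 8.7, 9.1 and 9.2 CPM, against 71.4, 80.6, 18.2 and 18.4 CPM in fed mutants (log2 -2.41 ± 0.68; adjusted p = 0.0268), a call lost without fed replicate 1 or 2 or any 1 restricted mutant (0.0535 to 0.0900). Fed 16-week and old groups each fell into 2 high and 2 low libraries, whereas the restricted groups and the mutants at 7 weeks (26.2 to 28.5 CPM) were even. The summed erythroid markers were 640 to 1201 CPM in restricted wild types, against 1179 to 1931 CPM in fed wild types. None of the 4 markers that were tested passed, where 12.1% of all genes did. Their part in the Alas2 values was not tested.

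Few regulators of hepcidin passed the test. Tested were 28 genes of the BMP, SMAD and STAT3 pathways and their targets. In restricted against fed mutants 1 rose, where 11.6% of all genes passed (5.59% higher and 6.04% lower). None passed in restricted against fed wild types (12.1% of all genes did) or in fed mutants against fed wild types (10.7%). Between the restricted groups, where 18.2% of all genes passed (9.38% higher and 8.85% lower), 2 were lower in mutants than in wild types. One of those was Tmprss6, the protease that lowers hepcidin expression by cleaving the BMP co-receptor. It had 85.9, 90.3, 84.5 and 74.7 CPM in restricted mutants, against 106.0, 111.6, 141.8 and 148.8 CPM in restricted wild types (log2 -0.60 ± 0.14; adjusted p = 0.00285). In old wild types 3 of the 28 rose and 1 fell, where 9.34% of all genes passed (4.75% higher and 4.59% lower). None passed in mutants by age (0.434% of all genes did). Socs3, a target and inhibitor of STAT3, had 8.3, 10.9, 25.9 and 9.4 CPM in old wild types, against 1.8, 0.9, 0.8 and 1.5 CPM at 16 weeks (log2 3.48 ± 0.50; adjusted p = 7.66e-05), and Smad1 changed by log2 0.70 ± 0.15 (adjusted p = 0.00414). In the same comparison 11 of 15 macrophage markers, 3 of 3 tested B and plasma cell markers (summed level of all 6 listed 34.9 to 82.6 CPM in old wild types, against 1.40 to 4.23 CPM at 16 weeks) and 2 of 2 tested neutrophil markers (all 6 listed, 3.04 to 8.41 CPM, against 0.248 to 0.800 CPM) were higher, and their part in these values was not tested. The old wild type with the most Socs3, replicate 3, had the least Hamp of its group (1402.4 CPM). That library also had the lowest hepatocyte marker sum of the series (63082 CPM). Old replicate 4, with the next lowest sum (72973 CPM), had 3177.6 CPM of Hamp. A relation of Socs3 or of these markers to Hamp was not tested.

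Among the genes listed as acute-phase, Saa4 had the smallest adjusted p in both restriction comparisons. Of 22 tested, 2 rose and 4 fell in restricted against fed mutants, where 5.59% of all genes rose and 6.04% fell (median log2 -0.37, against 0.00 over all genes). Under restriction in wild types 2 rose and 3 fell, where 5.44% of all genes rose and 6.71% fell (median 0.00, against 0.02). Saa4, a serum amyloid A, had 11.2, 8.9, 16.5 and 11.3 CPM in restricted mutants, against 69.2, 96.3, 111.2 and 158.8 CPM in fed mutants (log2 -3.18 ± 0.49; adjusted p = 0.000183). It had 13.0, 40.9, 25.7 and 16.5 CPM in restricted wild types, against 110.6, 317.3, 151.8 and 224.1 CPM in fed wild types (log2 -3.07 ± 0.48, adjusted p = 0.000298 by edgeR), while complement C3 rose by log2 0.77 ± 0.19 (adjusted p = 0.00853). Saa1 (log2 -5.23, adjusted p = 0.0208) and Saa2 (-5.05, 0.0289) also fell in restricted wild types, and Saa3 (-4.53, 0.0235) in restricted mutants. With 1 library left out, these calls were lost in 3 (Saa1), 4 (Saa2) and 4 (Saa3) of 8 fits. Fed mutants had 3 of the 22 higher than fed wild types and none lower, where 5.69% of all genes were higher, with a median of 0.65 against 0.01 over all genes; the clearest was Itih3, an inter-alpha-trypsin inhibitor chain (log2 0.91 ± 0.21; adjusted p = 0.00657). In the same comparison 14 of 15 macrophage markers were higher (summed level 569 to 756 CPM in fed mutants and 290 to 346 CPM in fed wild types). Their part in the acute-phase values was not tested. One acute-phase gene rose with age in each genotype, where 4.75% (wild types) and 0.246% (mutants) of all genes rose. Another count of 1 was lower in restricted mutants than in restricted wild types, where 8.85% of all genes were.

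**Figure D5:**
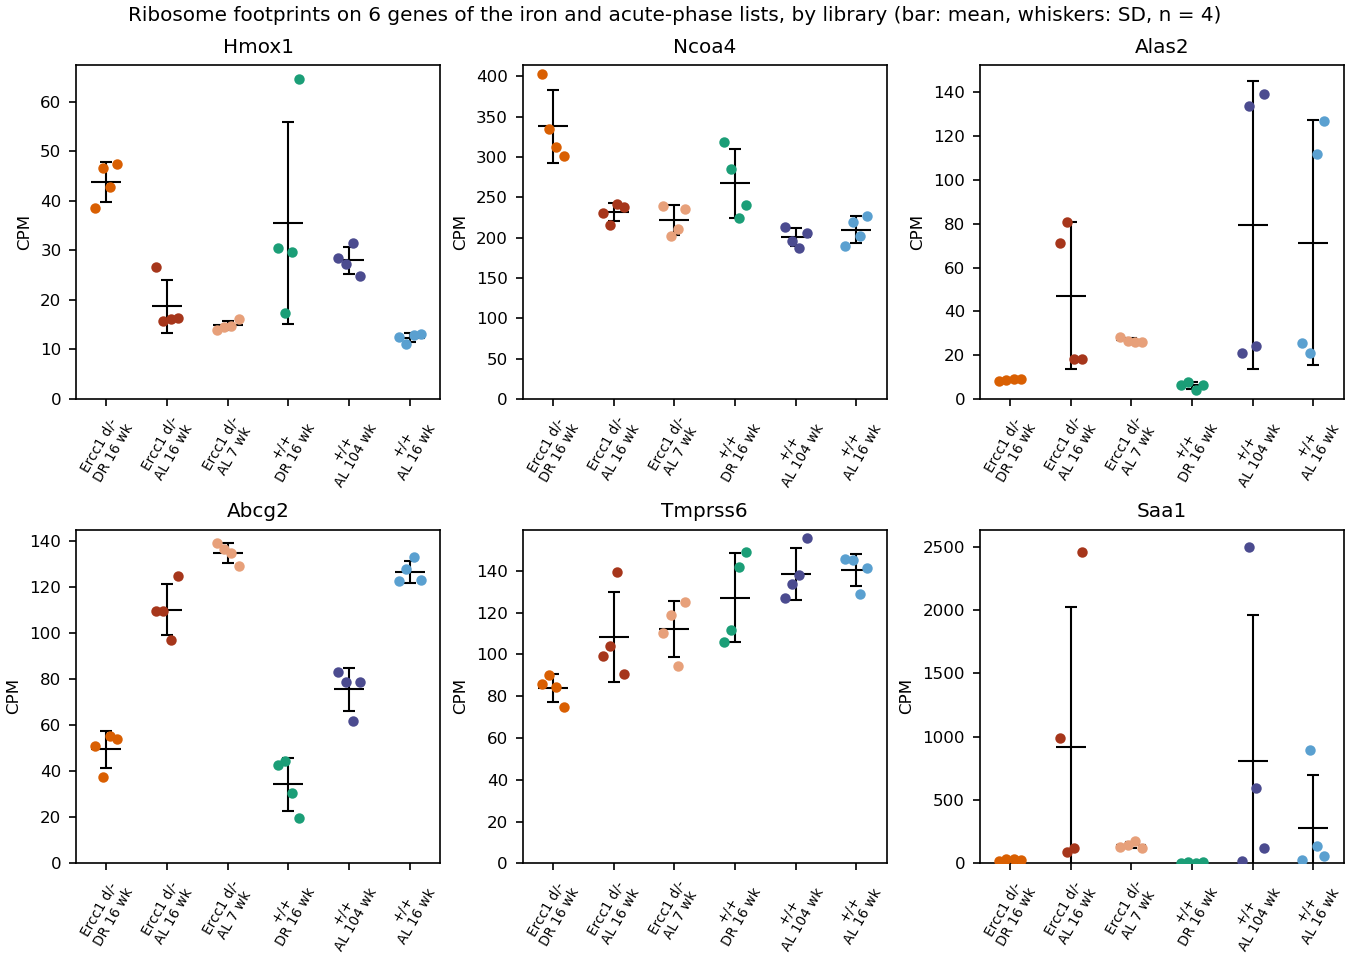
Footprints in CPM (vertical axes, from 0; whiskers that would pass below 0 end there) on 6 genes of the iron, heme and acute-phase lists, 1 point per library with mean and SD (n = 4). Hmox1 is higher in restricted and old groups than in the fed 16-week group of the same genotype, Abcg2 is lower there, and Alas2 lies between 4.3 and 9.2 CPM in the restricted groups.

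Assembly of iron-sulphur clusters is the main use of iron in mitochondria besides heme, and the number of its genes that passed is given beside the share of all genes. Of 26 tested, 2 rose and 2 fell in restricted against fed mutants, where 5.59% of all genes rose and 6.04% fell (median log2 -0.15, against 0.00 over all genes). In restricted against fed wild types 4 fell and none rose, where 6.71% of all genes fell and 5.44% rose (median -0.16, against 0.02). Iscu, the scaffold on which clusters are built, had 24.9, 26.0, 21.8 and 17.8 CPM in restricted mutants, against 39.8, 37.7, 37.6 and 26.8 CPM in fed mutants (log2 -0.65 ± 0.14; adjusted p = 0.00352). Nubp1, a scaffold of the cytosolic pathway, changed by log2 -0.81 ± 0.18 in restricted against fed wild types (adjusted p = 0.00353). Ciapin1, an electron carrier of that pathway, was higher in restricted mutants than in fed mutants (log2 0.75 ± 0.16; adjusted p = 0.00229) and than in restricted wild types (log2 0.92 ± 0.16; adjusted p = 0.000220), where 4 of the 26 were higher and 3 lower and 18.2% of all genes passed. One gene was lower in fed mutants than in fed wild types, where 5.04% of all genes were. None passed with age in wild types (9.34% of all genes did) or in mutants (0.434%).

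Of the other transcripts known to carry an iron-responsive element, Alas2 is described above. Epas1, the hypoxia-inducible factor whose messenger is held back by iron regulatory protein 1, had 323.9, 362.2, 295.9 and 247.8 CPM in old wild types, against 168.0, 154.5, 149.8 and 159.8 CPM at 16 weeks (log2 0.96 ± 0.18; adjusted p = 0.00114). A search for CAGTGN, the loop of the element, on the sense strand of the 50 bases after the RefSeq start found none in Fth1 or Ftl1, while 7.08% of all windows hold it; these letters are not in these windows, which says nothing of the element elsewhere in the messenger.

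By likeness across the 24 libraries (Pearson r of log2 CPM over all tested genes, as a description of libraries that share their groups), ferritin and hepcidin stood nearest to their own relatives. Fth1 was most like Ftl1-ps1 (r = 0.94), Ftl1 (0.94) and Ago2 (0.88), and Hamp was most like Hamp2 (0.94), Pgap1 (0.80) and Cyp17a1 (0.80). Slc40a1 was nearest to As3mt (0.86), Cyp17a1 (0.86) and Pcsk5 (0.85), and Tfrc to Slc39a4 (0.87), Ppic (0.85) and Ces2c (0.84). Slc39a4 encodes a zinc importer. Aco1 was nearest to Nln (0.88), Akr1a1 (0.86) and Hnmt (0.85), and Ireb2 to Ugt2b1 (0.85), Cyp4v3 (0.85) and Plcxd2 (0.84). Trf stood nearest to Rpl41 (0.84), Stt3b (0.80) and Rps21 (0.79), and Tfr2, with the weakest likeness of the 9, to Serping1 (0.74), Lrg1 (0.73) and Hc (0.70). Among the members themselves, Slc40a1 correlated with Fth1 at 0.75 and with Hamp at 0.75 over the libraries, and at 0.28 and 0.26 after group means were removed.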

How the data were processed

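Footprint counts deposited by the authors, 1 whole number per Ensembl gene and liver, are raw, as their values show. Libraries were made from cycloheximide-treated liver lysates digested with RNase I, per the labels' protocols. The submitters' processing notes name cutadapt 3.4, Trimmomatic 0.39, Bowtie2 2.4.2, STAR (2.7.0f, 2.7.8a), Subread 1.6.4 with featureCounts, and build GRCm38.p6. How multi-mapping reads and strand were handled is not given in the sources used here.

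Tests used edgeR 4.0.16 (R 4.3.3): filterByExpr over the 6 groups (12211 of 22429 genes), TMM, a robust quasi-likelihood model with 1 term per group over all 24 libraries (18 residual degrees of freedom) and 2-sided F tests, Benjamini-Hochberg adjusted over all genes tested, threshold 0.05. Each SE was taken as log2 change over root F. Log2 CPM for correlations used a prior count of 2. Positions come from the RefSeq gene table of the same build. The ratio of ferritin chains was tested by exact permutation (70 assignments). The 9 genes, the other gene lists and the comparisons were chosen with earlier results of these data known. From each list, up to 4 genes per comparison that passed, by smallest adjusted p, could be named, together with the 3 genes most like each member. Same-numbered libraries did not deviate together (mean r = 0.007, 10 of 60 pairs above 0.1), so the numbers were not treated as pairs. The deposited counts of open reading frames carry no gene names and were not used here. Some results of the list of transcripts with an iron-responsive element are not reported here. The code was tested on simulated data. Alternatives were other scalings, no filter, fits of the compared groups alone, DESeq2 1.42.0, a replicate block and leaving out each library.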

Additional observations from a re-analysis of the deposited data

Results flagged for a closer look

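Of 54 sets of 4 libraries (9 genes in 6 groups), 2 held a library far from the other 3 by Dixon's criterion, and chance gives about 1 in 20. Tfrc had 29.7 CPM in restricted wild-type replicate 3, against 13.1 to 13.9 CPM in the other 3. That library also had the lowest Fth1 and Ftl1 of its group. Trf had 75.2 CPM in fed mutant replicate 2 at 16 weeks, against 109.5 to 114.8 CPM in the other 3. Among the list genes, the response to restriction differed between genotypes for Pcbp1 alone, at -0.96 on the log2 scale for mutant minus wild type (adjusted p = 0.00748 by edgeR). Of all genes, 0.803% passed in that comparison.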

How the results depend on the processing

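The number of iron genes called moved by over 1.5 times in these settings. In fed mutants against fed wild types the count of 0 became 1 with library totals as the only scaling and 1 with DESeq2 (Tfrc in both), and 4 with genotype averaged over both diets. In old against 16-week wild types the count of 2 became 1 with library totals. In restricted against fed mutants the count of 2 became 5 with restriction averaged over both genotypes, and in restricted mutants against restricted wild types the count of 1 became 4 with genotype averaged over both diets. Smaller moves also occurred. In restricted wild types the count of 4 became 3 with library totals, with no filter and with only the compared groups fitted (each time without Aco1), and 5 with restriction averaged. In restricted against fed mutants the count of 2 became 3 with DESeq2, library totals, only the compared groups or the replicate block (Slc40a1 added), and with age in wild types 3 with DESeq2 (Tfrc added) and with only the compared groups (Fth1 added). Leaving out 1 library gave 0 to 2 calls with age in wild types, 3 to 5 in restricted wild types, 1 to 2 in restricted against fed mutants, 1 to 2 between the restricted groups and 0 in the other 3 comparisons. The log2 difference of the ratio of ferritin chains ran from -0.0733 to 0.0203 in mutants by age, a change of sign, and from 0.16 to 0.30 in restricted against fed wild types.
The results that changed sign were not called in either setting. With library totals only, log2 changes became 0.0185 (Tfr2) with age in wild types, 0.0757 (Trf) with age in mutants, 0.00304 (Tfr2) in restricted against fed wild types, 0.00333 (Fth1), 0.000914 (Tfr2) and 0.101 (Aco1) between the restricted groups, and 0.0159 (Ireb2) in the difference of responses. With the replicate number as a block they became 0.000692 (Trf, mutants by age) and 0.00632 (Aco1, restricted groups), with RLE scaling 0.000235 (Aco1, restricted groups), and with genotype averaged over diets -0.0130 (Tfr2, fed genotypes). Leaving out 1 library gave the following ranges. Fed mutants against fed wild types had -0.0577 to 0.213 (Ftl1) and -0.0754 to 0.199 (Ftl1-ps1). Age in wild types had -0.12 to 0.10 (Tfr2), -0.21 to 0.0409 (Trf) and -0.103 to 0.0439 (Ireb2), and age in mutants -0.18 to 0.13 (Trf). Restriction had -0.10 to 0.11 (Tfr2) in wild types and -0.53 to 0.00446 (Tfrc) in mutants. Restricted mutants against restricted wild types had -0.36 to 0.0664 (Fth1), -0.21 to 0.25 (Ftl1), -0.22 to 0.24 (Ftl1-ps1), -0.13 to 0.15 (Aco1) and -0.0241 to 0.184 (Ireb2). The difference of responses had -0.15 to 0.28 (Fth1), -0.30 to 0.16 (Ftl1), -0.29 to 0.17 (Ftl1-ps1), -0.35 to 0.16 (Tfrc) and -0.129 to 0.0847 (Ireb2). The causes were not tested. Fth1 and Slc40a1 in restricted against fed wild types, Fth1 in restricted against fed mutants, Ftl1 in restricted against fed wild types and Slc40a1 between the restricted groups kept their calls in every alternative run. Under the replicate block, which the numbers do not warrant (7 of 24 libraries were closest to their own number), 3 rather than 2 iron genes passed in restricted against fed mutants, with Slc40a1 added (adjusted p = 0.0270), and the counts of the other 6 comparisons did not move. Over all genes, calls with only the compared groups fitted were 2138 against 1310 (fed genotypes), 436 against 53 (mutants by age; 163 by DESeq2 and 99 with library totals), 658 against 1483 (restriction in wild types) and 769 against 2227 (restricted genotypes). The difference of responses had 273 by DESeq2 against 98. Library totals moved the median log2 change of all genes to 0.11 in fed genotypes, mutants by age and restricted genotypes, against 0.01, 0.01 and -0.01. The lowest count of any of the 9 genes was 66, for Tfrc.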
